A study of Mus musculus with 12 samples.

Results

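The 40 genes described here encode proteins that drive a cell through mitosis. They comprise cyclins and the kinase they activate, mitotic kinases, the chromosomal passenger complex, the spindle checkpoint and the anaphase-promoting complex (APC/C) partners it controls, kinetochore proteins, spindle motors, cytokinesis factors, and 3 genes of chromosomes and transcription, Mki67, Top2a and Foxm1. They were chosen by name as a list of G2/M and mitosis genes, and all 40 were found among the 52535 gene symbols counted. Levels are CPM, a gene's counts scaled to a fixed library total, after TMM scaling, which corrects totals for composition.

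RNA was sequenced from T-cell lymphoma cell lines 240, 242 and 352, each grown from the tumour of a different Lck-Dlx5;Lck-MyrAkt2 mouse. In these animals the Lck promoter drives the homeobox gene Dlx5 and myristoylated, constitutively active Akt2 in immature T cells, and both groups carry both transgenes. The sources used here give no ages of the mice. For every line there was 1 control library, placebo-treated in the study's words, and 1 library made after PKF118-310, a small molecule that blocks β-catenin binding to Tcf proteins, used at 1 µM for 20 h. Every library has 2 count files, labelled as sequencing lanes and summed here, while a figure legend of the study speaks of 2 separate cultures per line and treatment. If the files are separate cultures, each summed library pools 2 of them. As labelled, each group held 3 libraries, 1 per line. The p-values of the fits rest on the spread between these lines, moderated by the spread pooled over all genes.

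Mitotic genes are transcribed in a wave that begins in late S phase and ends when the cell divides. Many of their promoters hold CCAAT boxes, bound by the trimeric factor NF-Y, and a cell cycle genes homology region (CHR), bound by the DREAM complex in resting cells and by B-Myb and FoxM1 complexes in dividing cells. Cyclin B with Cdk1 starts mitosis, Aurora and Polo-like kinases build the spindle, kinetochores attach chromosomes to it, and the checkpoint holds the APC/C inactive until every chromosome is attached. In a bulk culture, fewer cells in mitosis and less mitotic RNA per cell cannot be told apart.

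The libraries were unequal. Total counts ran from 604984 in treated line 242 to 13766638 in treated line 352, with the others between 3160824 and 13221186. A single value of 3 counts equals 4.96 CPM in the shallowest library and 0.218 CPM in the deepest. Treated line 242 also stood apart in its share of counts from mitochondrially encoded genes, 11.8% against 1.84% to 3.10% elsewhere, and in its summed B-cell markers, 133.6 CPM against 0 to 0.744 CPM in controls. Of its B-cell markers, Pax5 (79.8 CPM) and Ebf1 (50.1 CPM) were highest. Pax5 was also higher in the treated than in the control library of line 240 (2.23 against 0.248 CPM) and of line 352 (1.12 CPM against 0). All 12 T-cell markers were counted, with sums of 3665 to 5209 CPM in controls and 3073 to 5730 CPM in treated libraries. Myeloid sums were 10.4 to 44.0 CPM in controls and 11.2 to 59.4 CPM in treated libraries, with Lyz2, Elane, S100a8 and S100a9 at 0 throughout. Erythroid sums did not exceed 0.638 CPM, with Hbb-bs at 0, and sums for thymic epithelium and stroma were 45.0 to 71.9 CPM in controls and 46.6 to 128.1 CPM in treated libraries. The part of these differences in the results was not tested. Results are therefore given for all 3 lines and for lines 240 and 352 alone. Leaving out line 242 was chosen with earlier results of these data known.

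Promoter windows, from 250 bases before to 50 bases after each RefSeq start site (GRCm38.p6), were at hand for 32 of the 40 genes in 35 windows. The letters CCAAT, the NF-Y box, were found on either strand in 28 of them (80%), against 37.4% of all 32851 windows of that length. The CHR letters TTTGAA were found in 27 (77.1%), against 17.9% of all windows, and both motifs together in 24 (68.6%), against 6.95%. The CHR-like letters TTTAAA were in 9 (25.7%, against 13.2%). A Tcf core, CTTTGA, which shares TTTGA with the CHR letters and can overlap them, was in 6 windows (17.1%), close to the 16% of all windows. Of the 62 CCAAT matches, 45 lay within 120 bases before the start site, and 25 of the 34 TTTGAA matches lay within 50 bases on one side or the other of it. Bub3, Prc1 and Ect2 have 2 overlapping windows each, so their sites enter these window and match counts more than once. Counted by gene, 25 of the 32 held CCAAT, 24 held TTTGAA and 21 held both. A match describes letters and is not a bound site.

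The stretches that hold these motifs are shown for 3 genes that fell in lines 240 and 352 (Ccnb2, Cenpf, Mki67) and for 3 that did not pass the test (Cdc20, Cdk1, Cenpe), so that their promoters can be set side by side. Capitals mark CCAAT or its reverse complement ATTGG, and TTTGAA. In the GRCm38.p6 build they lie at chr9:70421537-70421729 (minus strand, Ccnb2), chr1:189688071-189688226 (minus, Cenpf), chr7:135716464-135716575 (minus, Mki67), chr4:118437339-118437404 (minus, Cdc20), chr10:69352914-69353000 (minus, Cdk1) and chr3:135212543-135212563 (plus, Cenpe).
Ccnb2: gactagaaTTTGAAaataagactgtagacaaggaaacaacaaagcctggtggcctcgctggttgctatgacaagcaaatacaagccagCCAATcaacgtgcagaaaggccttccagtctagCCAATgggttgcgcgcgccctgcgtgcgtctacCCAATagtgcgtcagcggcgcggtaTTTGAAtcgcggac
Cenpf: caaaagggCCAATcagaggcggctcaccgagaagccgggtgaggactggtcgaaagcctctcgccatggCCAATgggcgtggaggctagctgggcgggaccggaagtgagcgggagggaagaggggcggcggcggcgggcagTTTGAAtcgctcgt
Mki67: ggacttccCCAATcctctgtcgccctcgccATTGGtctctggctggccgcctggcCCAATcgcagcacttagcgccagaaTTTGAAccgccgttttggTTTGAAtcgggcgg
Cdc20: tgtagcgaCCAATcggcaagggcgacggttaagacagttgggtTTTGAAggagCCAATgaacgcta
Cdk1: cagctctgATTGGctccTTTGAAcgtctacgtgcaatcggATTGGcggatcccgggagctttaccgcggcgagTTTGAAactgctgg
Cenpe: tgcgccacCCAATccgctgca

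The Ccnb2 stretch held 3 CCAAT boxes at a regular spacing of 33 bases, upstream of a CHR at the start site. Cdc20 and Cdk1 held the same pair of motifs as Ccnb2, Cenpf and Mki67. Among the 9 genes that fell in lines 240 and 352 and had a window, 5 held both motifs, and among the 23 that did not pass, 16 did. Nusap1 was the single one of the 9 with neither. The Tcf core was in 0 of the 9 and in 5 of the 23 (Aurka, Bub1b, Bub3, Cdk1 and Ube2c) and these counts were not tested.

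**Figure D1:**
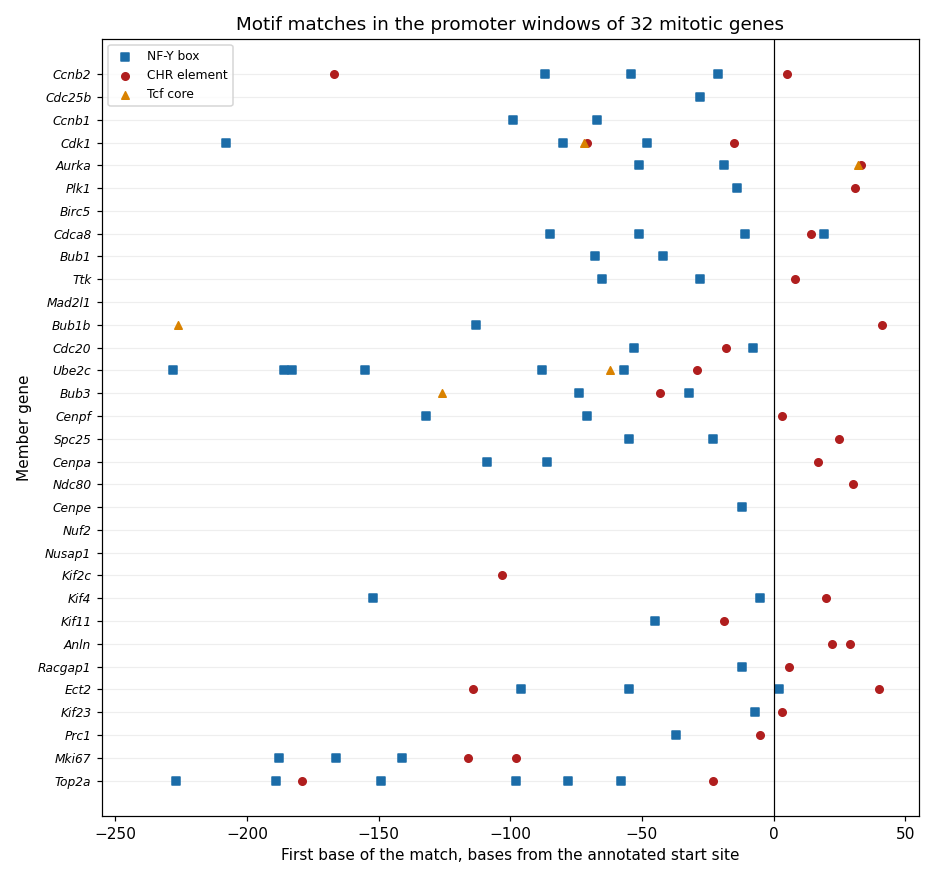
Positions of motif matches in the promoter windows of 32 mitotic genes, in bases from the annotated start site (x axis), one gene per line and grouped by role; squares are NF-Y boxes, circles CHR elements and triangles Tcf cores. For genes with several windows the first is drawn, and most circles lie within 50 bases of the start site.

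In control cells the genes spanned a wide range of levels. Per kb of exon, Mki67, the proliferation marker that coats mitotic chromosomes, was highest at 170 ± 31.5 CPM per kb (SD, n = 3), followed by Top2a, the topoisomerase that untangles sister chromatids, at 161 ± 16.4 CPM per kb. These neighbours in the order differed by less than their SD. Ccnb2 stood at 106 ± 4.60 CPM per kb, followed by Bub1b (92.2 ± 24.4), Ccna2 (90.5 ± 7.93) and Cdc20 (86.6 ± 11.6), and neighbours among these 4 did not differ beyond the SD of Bub1b. The lowest were Ndc80 at 10.7 ± 0.467, Ttk at 9.82 ± 0.201 and Cdc25c at 5.91 ± 0.527 CPM per kb. Mki67 and Top2a together made up 23.6% to 31.9% of the counts of all 40 genes.

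The levels in the plot of members by library were lower after PKF118-310 in most genes of every line. Summed over the 40 genes, the level in line 240 was 10905 CPM in the control and 9737 CPM after treatment, a decrease of 10.7%. Line 242 went from 10835 to 6629 CPM (38.8% less) and line 352 from 9616 to 7018 CPM (27.0% less). The treated libraries, at 6629 to 9737 CPM, overlapped narrowly with the controls, at 9616 to 10905 CPM. As a share of all counts, the 40 genes took 1.09% (95% Wilson interval 1.08 to 1.10) and 0.966% (0.955 to 0.977) in control and treated line 240, 1.03% (1.02 to 1.04) and 0.590% (0.571 to 0.610) in line 242, and 0.986% (0.981 to 0.991) and 0.730% (0.725 to 0.734) in line 352. Those intervals cover counting error only. The mean log2 ratio of the sums was -0.44 ± 0.27 (SD, n = 3 lines), lower in each of the 3 lines, with p = 0.25 in an exact two-sided paired permutation test, which is the smallest p that 3 pairs allow. Without Mki67 and Top2a, the remaining 38 genes were lower by 5.32% in line 240, 32.2% in line 242 and 23.3% in line 352.

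**Figure D2:**
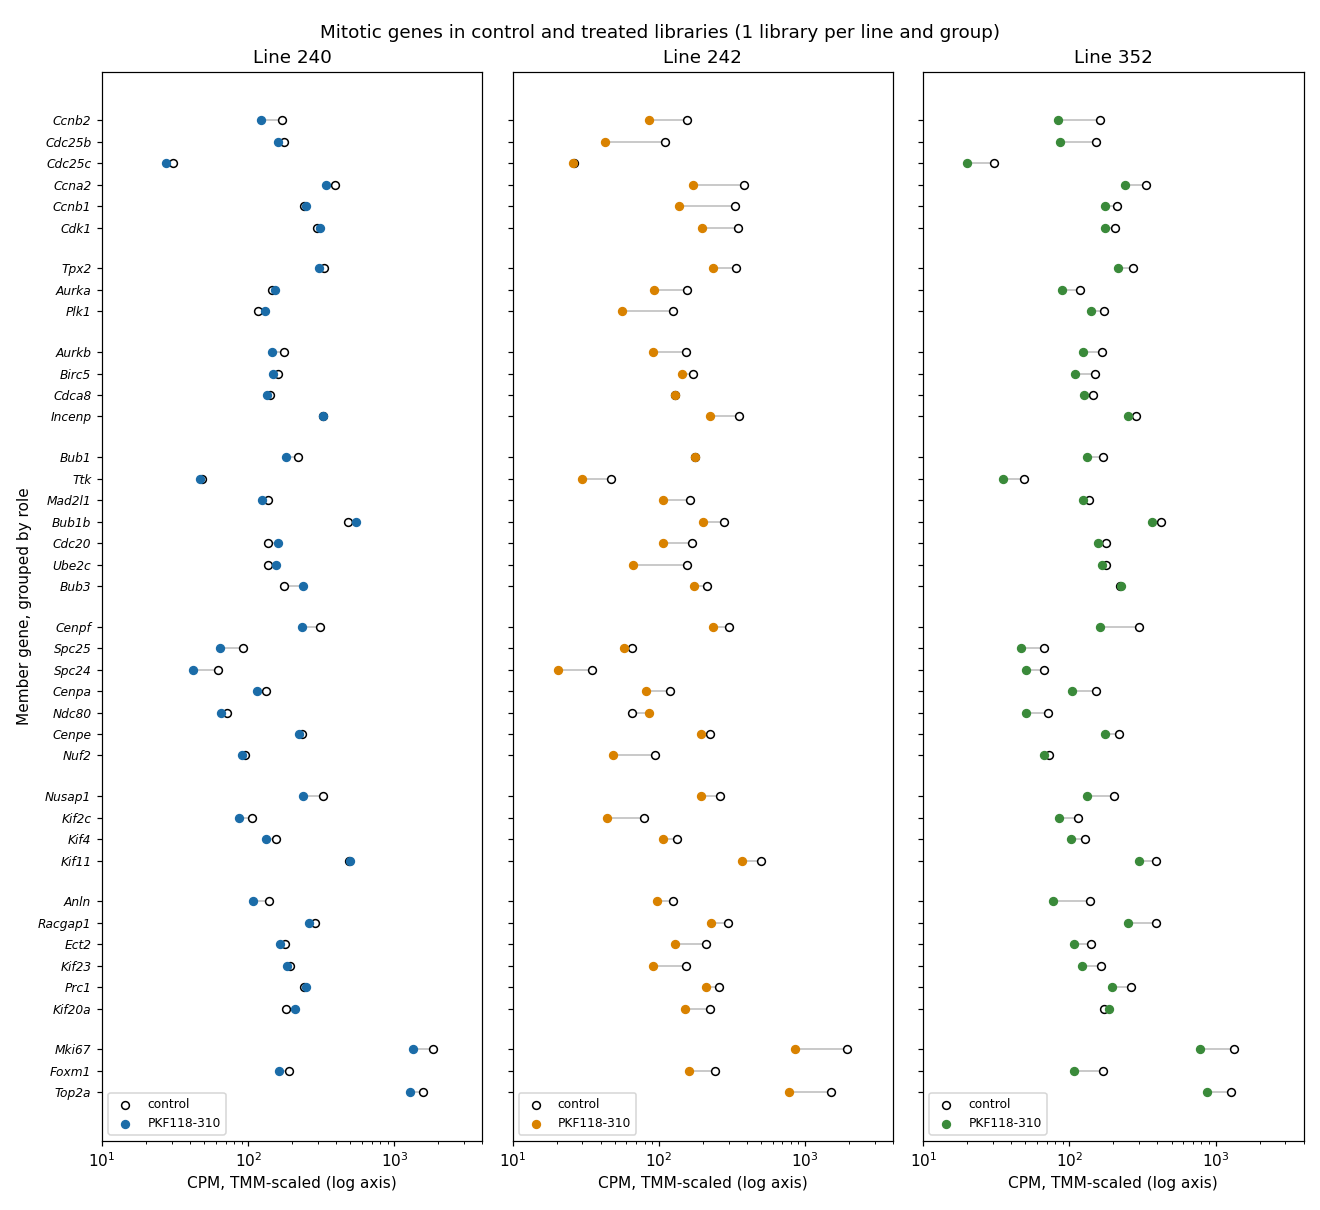
Level of each of the 40 mitotic genes in CPM after TMM scaling (x axis, log scale), one panel per line, with open circles for the control library and filled circles for the PKF118-310 library. Filled circles lie left of open ones for 28 genes in line 240, 38 in line 242 and 38 in line 352.

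Gene by gene, the ratio of treated to control was computed within each line with a prior count of 2, and its counting interval comes from the exact conditional binomial. With 1 library per group these ratios have no replicate check. In line 240 the median log2 ratio was -0.12, from -0.57 (Spc24) to 0.42 (Bub3), and 17 genes had an interval below 0 and 4 above. In line 242 the median was -0.60, from -1.36 (Cdc25b) to 0.37 (Ndc80), with 28 intervals below 0 and 0 above. In line 352 it was -0.42, from -0.95 (Ccnb2) to 0.11 (Kif20a), with 37 below and 1 above. The median over all genes tested was 0.00 in each line, and 49.5% to 50.3% of them lay below 0. Of the 40 genes, 28, 38 and 38 lay below 0 in lines 240, 242 and 352. The share of all genes with an interval on one side of 0 was not computed, so the interval counts have no background. In line 352 the median interval width was 0.18, against an SD of 0.47 over all genes. Intervals that narrow can exclude 0 for changes of ordinary size, so how many did so in line 352 cannot be judged without that background. For direction there is a background: 38 of the 40 genes lay below 0 in that line, against 50.3% of all genes. Counted over lines, 26 of the 40 genes were lower in all 3, where 17% of all 10331 genes tested were, and 0 were higher in all 3, where 15.9% were. In 12 genes (Top2a, Ccnb2, Aurkb, Mad2l1, Ttk, Birc5, Cenpa, Cenpf, Spc25, Racgap1, Anln and Foxm1) every treated library lay below every control, against 2.87% of all genes, and in 0 did every treated library lie above, against 3.29%.

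The fit of all 3 lines placed 0 of the 40 genes past an adjusted p of 0.05, as it did for all genes (0% called lower and 0% higher of 10331). With the edgeR quasi-likelihood test the smallest adjusted p among the 40 was 0.842. At an unadjusted p below 0.05 there were 13 of the 40, all lower, against 3.03% of all genes called lower in that way and 2.49% higher, and DESeq2 gave 0 past its adjusted threshold. The edgeR likelihood ratio test gave 1 (Ccnb2), and limma voom with sample weights, which weighted the libraries of line 242 at 0.37 and 0.40 against 1.42 to 1.79 for the others, gave 6 (Anln, Ccnb2, Cenpf, Mki67, Nusap1 and Spc25), all lower. Of all genes, 0.0968% were called lower with DESeq2, 0.281% with the likelihood ratio test and 4.59% with voom. The median log2 fold change was -0.35 over the 40 genes and 0.00 over all genes. On simulated data this fit recovered 16% of 2-fold changes, so 0 calls do not show that the genes were unchanged.

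With lines 240 and 352 alone, 12 of the 40 genes (30%) fell and 0 rose, where 5.92% of all 11760 genes tested fell and 5.01% rose (edgeR quasi-likelihood test, adjusted p below 0.05). The 12 were Mki67, Ccnb2, Aurkb, Cdc25b, Nusap1, Cenpa, Cenpf, Spc24, Spc25, Kif2c, Anln and Foxm1, and the other 28 did not pass. The median log2 fold change over the 40 genes was -0.29, against -0.01 over all genes, and the fitted value was below 0 in 37 of them. This fit rests on 1 residual degree of freedom. Its p-values and SEs draw on spread pooled over all genes, so an SE can be smaller than the lines' own spread. Cdc25b, for example, had an SE of 0.14, with within-line log2 ratios of -0.12 in line 240 and -0.81 in line 352. Without the line as a block this fit gave 0 calls (1 at an unadjusted p below 0.05), and 0 over all genes. The calls thus rest on pairing each treated library with its own control.

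**Figure D3:**
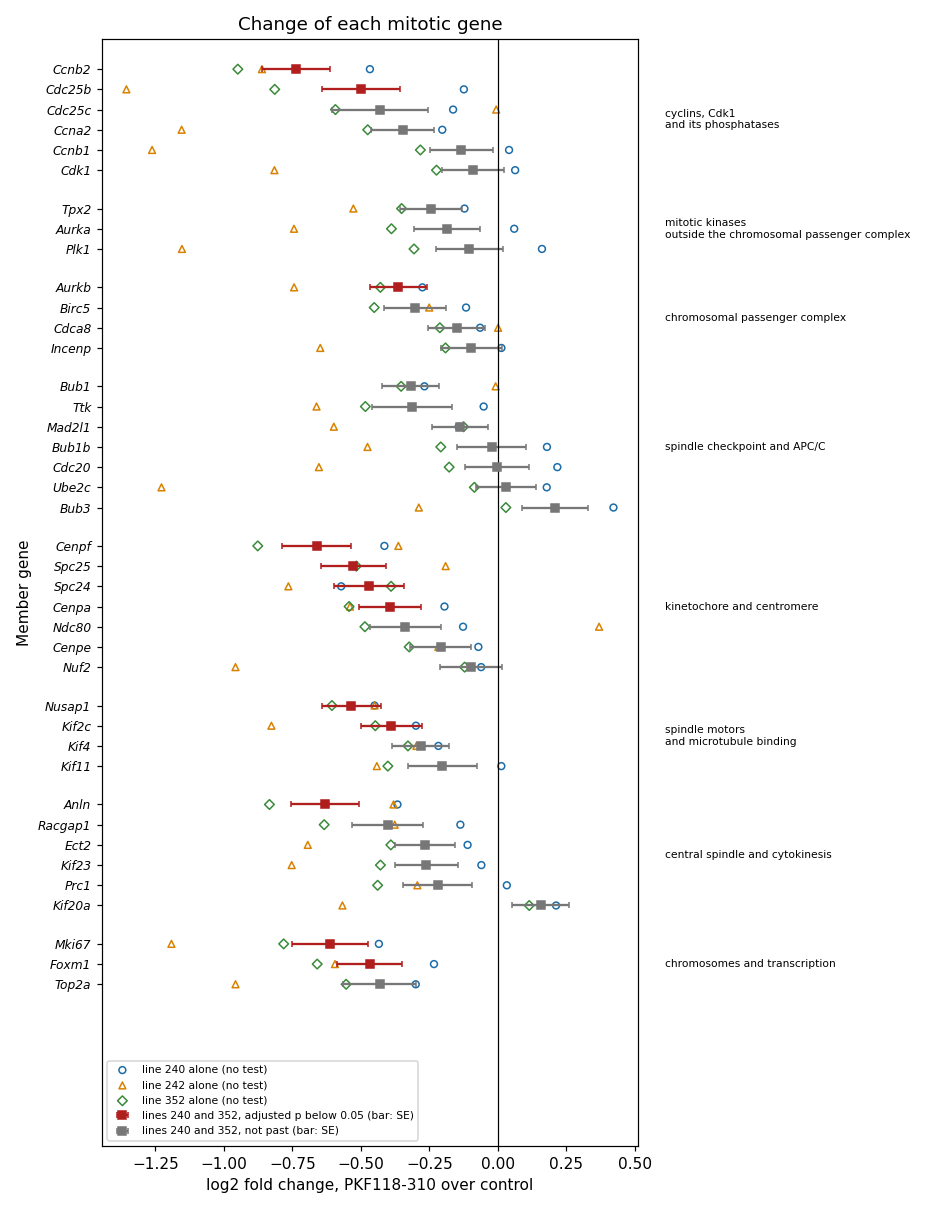
Log2 fold change of each gene, PKF118-310 over control (x axis), grouped by role, with squares for the fit of lines 240 and 352 (bars: SE, n = 2 lines; red where adjusted p was below 0.05) and open symbols for each line alone. The 12 red squares lie between -0.74 and -0.36, and the symbols of line 242 scatter most widely.

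Cyclins, Cdk1 and its activating phosphatases were represented by 6 genes, of which Ccnb2 and Cdc25b fell in lines 240 and 352. Ccnb2, a B-type cyclin (chromosome 9, 70407692 to 70421547, mm10), had control levels of 169, 155 and 163 CPM in lines 240, 242 and 352, and 122, 85.4 and 84.0 CPM after treatment. Every treated library lay below every control. Its log2 fold change of -0.74 ± 0.12 (SE, n = 2 lines; edgeR adjusted p = 0.00345), a 1.67-fold lower level, was the largest decrease of the 40 genes in that fit, and in the 3-line fit it was -0.76 ± 0.17 (adjusted p = 0.842).

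Cdc25b, a phosphatase that activates cyclin-bound Cdk1 (chromosome 2, 131186949 to 131198497), stood at 175, 110 and 151 CPM in controls and at 160, 42.7 and 86.0 CPM in treated cells, in the same order of lines. The decrease was small in line 240, whose counting interval held 0 (-0.29 to 0.04), and its treated library lay above the controls of lines 242 and 352. The fitted change was -0.50 ± 0.14 (adjusted p = 0.0414), and the call was lost under 6 settings, among them DESeq2 (adjusted p = 0.336) and halved counts of line 352 (edgeR adjusted p = 0.111). Antisense to Cdc25b lies Spef1, with 15.3% as many counts, and it is not stated whether counting used strand.

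Ccnb1, the main B-type cyclin of mitotic entry, showed no such change in line 240: its controls were at 242, 330 and 213 CPM and its treated libraries at 249, 137 and 175 CPM. Its fitted change in lines 240 and 352 was -0.13 ± 0.11 (adjusted p = 0.510). Cdk1, the kinase itself, went from 295 to 308 CPM in line 240, from 347 to 197 CPM in line 242 and from 205 to 176 CPM in line 352, with a fitted change of -0.09 ± 0.11 (adjusted p = 0.673). Both genes were thus lower in line 242, with log2 ratios of -1.26 (Ccnb1) and -0.82 (Cdk1), and lay between -0.28 and 0.06 in lines 240 and 352. Ccna2, cyclin A, had a value of -0.35 ± 0.12 (adjusted p = 0.0743) and Cdc25c one of -0.43 ± 0.17 (adjusted p = 0.139).

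None of Plk1, Aurka and its activator Tpx2 passed, kinases and a cofactor that mature centrosomes and nucleate spindle microtubules. Plk1 had control levels of 116, 124 and 173 CPM and treated levels of 130, 55.7 and 140 CPM, so that line 240 alone was higher after treatment. The fitted changes in lines 240 and 352 were -0.10 ± 0.12 for Plk1, -0.19 ± 0.12 for Aurka and -0.25 ± 0.11 for Tpx2.

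In the chromosomal passenger complex, which corrects faulty attachments and steers cytokinesis, the kinase Aurkb fell and its partners did not pass. Aurkb (chromosome 11, 69045647 to 69051664) was at 176, 153 and 166 CPM in controls and 145, 90.9 and 123 CPM in treated cells. All 3 treated libraries lay below all 3 controls, and the fitted change was -0.36 ± 0.10 (adjusted p = 0.0425). The call was lost under 7 settings, among them DESeq2 (adjusted p = 0.296) and each lane alone. The scaffold Incenp (-0.10 ± 0.11), survivin, Birc5 (-0.30 ± 0.11), and borealin, Cdca8 (-0.15 ± 0.10), had smaller values.

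The spindle checkpoint and APC/C genes gave no call among 7 in lines 240 and 352, at a median log2 fold change of -0.02. Their summed level was 8.34% higher after treatment in line 240 and lower by 28.5% in line 242 and by 10.8% in line 352. Bub1b, which encodes the checkpoint protein BubR1, had controls at 482, 279 and 422 CPM and treated libraries at 545, 200 and 365 CPM. Cdc20, the APC/C activator that the checkpoint restrains, was at 137, 169 and 178 CPM in controls and 159, 108 and 158 CPM after treatment. Both were higher in line 240 and lower in lines 242 and 352. Their fitted changes in lines 240 and 352 were -0.02 ± 0.12 (Bub1b, adjusted p = 0.934) and 0.00 ± 0.12 (Cdc20, adjusted p = 0.987), with a sign that turned under some settings.

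Bub3, the partner of Bub1 and BubR1, had the highest value of the 40 genes (0.21 ± 0.12, adjusted p = 0.300), with 176, 213 and 221 CPM in controls and 236, 174 and 226 CPM after treatment. Ube2c, the ubiquitin-conjugating enzyme of the APC/C, had 0.03 ± 0.11. The kinase Bub1 lay nearest to the threshold in this group, at -0.32 ± 0.10 (adjusted p = 0.0682), and Ttk (-0.31 ± 0.15) and Mad2l1 (-0.14 ± 0.10) did not pass.

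By number, kinetochore and centromere genes gave the most calls in lines 240 and 352, 4 of 7 (57.1%), against 5.92% of all genes called lower. By share, the genes of chromosomes and transcription gave more, 2 of 3 (66.7%). Cenpf, a large kinetochore protein that accumulates in G2 (chromosome 1, 189640606 to 189688086), was at 311, 301 and 300 CPM in the 3 controls, nearly the same in each line, and at 233, 234 and 163 CPM after treatment. No treated library reached the lowest control, and the fitted change was -0.66 ± 0.13 (adjusted p = 0.00635). Cenpa, the histone H3 variant that marks centromeres (chromosome 5, 30666777 to 30674830), went from 132 to 115 CPM, from 119 to 81.7 CPM and from 152 to 104 CPM in lines 240, 242 and 352. Its treated levels too lay below all controls, with a fitted change of -0.39 ± 0.11 (adjusted p = 0.0452), a call lost under 6 settings (DESeq2 adjusted p = 0.379).

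The Ndc80 complex binds microtubules directly. Spc25 (chromosome 2, 69193895 to 69206194) was at 92.0, 65.7 and 66.7 CPM in controls and 63.8, 57.5 and 46.5 CPM after treatment. Spc24 (chromosome 9, 21755442 to 21760303) was at 62.3, 34.9 and 66.5 CPM in controls and 41.8, 20.4 and 50.7 CPM after treatment. Both were lower in each line, with counting intervals that held 0 in line 242 (-0.79 to 0.36 for Spc25, -1.82 to 0.12 for Spc24). Spc24 in treated line 242 rests on 11 counts. Both genes fell in lines 240 and 352 (edgeR adjusted p = 0.0144 for Spc25 and 0.0344 for Spc24). The decreases were 0.53 ± 0.12 (Spc25) and 0.47 ± 0.13 (Spc24) on the log2 scale. Spc24 lost its call under 7 of the alternative settings, each lane alone among them (edgeR adjusted p = 0.078 and 0.0791), and Spc25 lost it under DESeq2 (adjusted p = 0.209) and without the block. The remaining subunits did not pass: Ndc80 had -0.34 ± 0.13 (adjusted p = 0.119) and Nuf2 -0.10 ± 0.11 (adjusted p = 0.634). Differences between the subunits were not tested, and in line 352 the log2 ratio of Ndc80 (-0.49) lay between those of Spc25 (-0.52) and Spc24 (-0.39).

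Cenpe, a kinesin that carries chromosomes to the spindle equator (chromosome 3, 135212537 to 135273611), had 234, 225 and 218 CPM in controls and 223, 193 and 174 CPM after treatment. It was lower in each line, and the treated level of line 240 lay above the control of line 352. It was lower in each line, with counting intervals that held 0 in line 240 (-0.21 to 0.07) and line 242 (-0.53 to 0.08). The treated level of line 240 lay above the control of line 352. The fitted change of Cenpe did not pass. It was -0.21 ± 0.11 in lines 240 and 352 (edgeR adjusted p = 0.261) and -0.21 ± 0.15 in all 3 lines (edgeR adjusted p = 0.843).

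Of the spindle motors and microtubule-binding proteins, Nusap1 and Kif2c fell. Nusap1, which bundles spindle microtubules near chromosomes (chromosome 2, 119618298 to 119651244), was at 325, 264 and 201 CPM in controls and 238, 193 and 132 CPM after treatment. The decrease was alike in the 3 lines, with log2 ratios of -0.45, -0.45 and -0.61, while the starting levels differed, so the groups overlapped. The fitted change was -0.54 ± 0.11 (adjusted p = 0.00823). Kif2c, a microtubule-depolymerizing kinesin (chromosome 4, 117159639 to 117182639), went from 106 to 86.4 CPM, from 79.2 to 44.5 CPM and from 115 to 84.6 CPM, with a fitted change of -0.39 ± 0.11 (adjusted p = 0.0411), a call lost under 6 settings (DESeq2 adjusted p = 0.380). Kif4 had -0.28 ± 0.10 and Kif11, the bipolar spindle motor, -0.20 ± 0.13, and neither passed.

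Among 6 genes of the central spindle and cytokinesis, Anln alone fell. Anln encodes anillin, a scaffold of the contractile ring (chromosome 9, 22332012 to 22389188), and was at 139, 126 and 137 CPM in controls and 107, 96.5 and 77.0 CPM after treatment. Controls and treated libraries did not overlap, and the fitted change was -0.63 ± 0.12 (adjusted p = 0.00755), a call lost under DESeq2 (adjusted p = 0.0824) and without the block. Racgap1, of the centralspindlin complex, also kept the groups apart but did not pass (-0.40 ± 0.13, adjusted p = 0.0668). Its partner Kif23 had -0.26 ± 0.11, the exchange factor Ect2 -0.27 ± 0.11 and the crosslinker Prc1 -0.22 ± 0.13.

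Kif20a, a kinesin of the cleavage furrow, was higher after treatment in lines 240 and 352 and lower in line 242. Its controls were at 181, 223 and 174 CPM and its treated libraries at 210, 150 and 188 CPM. The fitted change was 0.16 ± 0.10 (adjusted p = 0.383) in lines 240 and 352 and -0.06 ± 0.21 in all 3 lines, so the direction depends on line 242. Cdc23 overlaps Kif20a on the opposite strand with 56.2% as many counts, the largest such share among the 8 of the 40 genes whose antisense partner exceeded 5% (the others were Ccna2, Cdc20, Cdc25b, Cdca8, Nusap1, Kif4 and Prc1).

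Of the genes of chromosomes and transcription, Mki67 and Foxm1 fell. Mki67 (chromosome 7, 135689784 to 135716361) was at 1826, 1946 and 1346 CPM in controls and 1351, 852 and 783 CPM after treatment. It was lower in each line, and the treated level of line 240 lay just above the control of line 352. The fitted change was -0.61 ± 0.14 (adjusted p = 0.0144) in lines 240 and 352 and -0.80 ± 0.24 (adjusted p = 0.842) in all 3.

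Foxm1, the forkhead factor that activates many of the other genes listed here (chromosome 6, 128362967 to 128376146), was at 190, 244 and 170 CPM in controls and 161, 161 and 107 CPM after treatment. Its treated libraries all lay below its controls, with a fitted change of -0.47 ± 0.12 (adjusted p = 0.0251), a call lost under 5 settings (DESeq2 adjusted p = 0.209). Top2a lay just outside the threshold, at -0.43 ± 0.13 (adjusted p = 0.0546), and its treated libraries, at 778 to 1270 CPM, were all below its controls, at 1285 to 1564 CPM.

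How the 40 genes ranked in their change was alike in lines 240 and 352 and not in line 242. Across the 40 genes, the log2 ratios of lines 240 and 352 had a Pearson r of 0.72 and a Spearman rho of 0.72, whereas line 242 had r of -0.06 with line 240 and 0.03 with line 352. These are correlations across genes, which are not independent replicates, and the median width of the counting interval was 0.74 log2 units in line 242 against 0.33 and 0.18 in lines 240 and 352. Ccnb2, Cenpf, Mki67, Anln and Nusap1 were toward the low end in both line 240 and line 352, and Bub3, Kif20a, Ube2c, Cdc20 and Bub1b toward the high end. In line 242 the lowest were Cdc25b (-1.36), Ccnb1 (-1.26), Ube2c (-1.23) and Mki67 (-1.19).

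**Figure D4:**
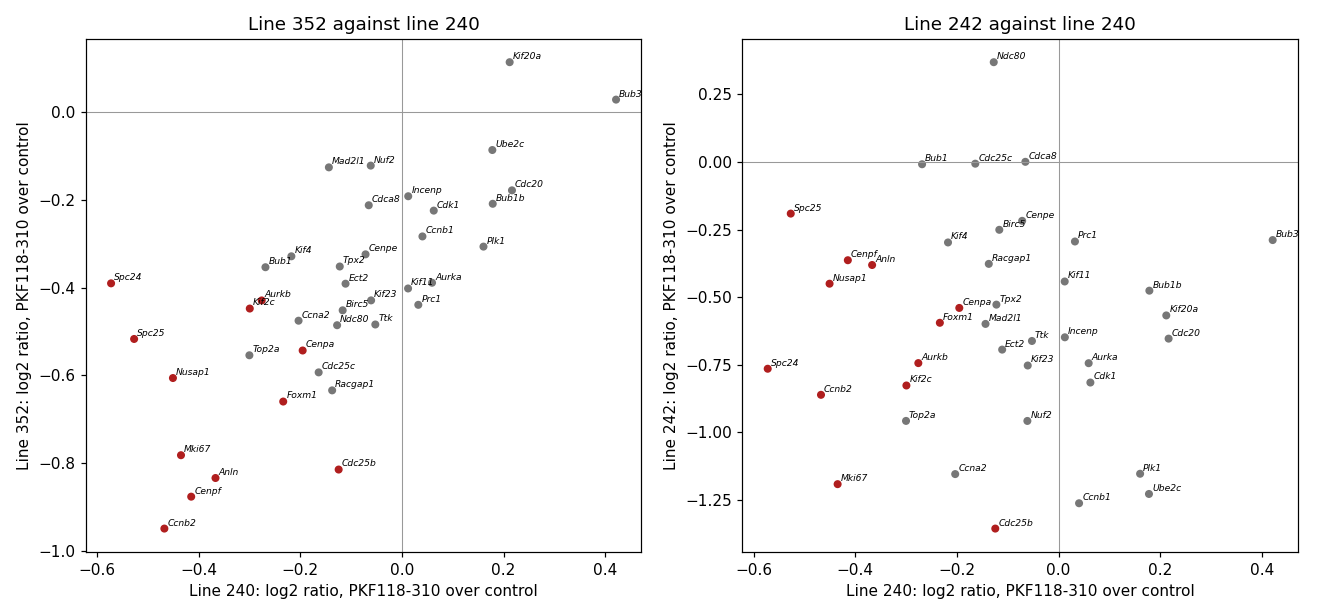
Within-line log2 ratio, PKF118-310 over control, of the 40 genes in line 352 (left, y axis) and line 242 (right, y axis) against line 240 (x axes); each point is 1 gene, red where it fell in the fit of lines 240 and 352, a fit that used the values of the left panel. Points rise together in the left panel (r = 0.72) and scatter in the right one (r = -0.06).

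Genes that act earlier in the cycle were set beside the mitotic ones, in a list of 46 DNA replication and S phase genes. Their summed level was 8.06% higher after treatment in line 240, 47.7% lower in line 242 and 7.64% lower in line 352. The ratio of the mitotic to the S phase sum therefore went from 1.16 to 0.959 in line 240 and from 1.06 to 0.835 in line 352, but from 1.06 up to 1.24 in line 242. In lines 240 and 352, 0 of the 46 genes passed in either direction, against 5.92% of all 11760 genes lower and 5.01% higher. Their median log2 fold change was -0.02. Rfc4 (0.38 ± 0.12, edgeR adjusted p = 0.0697), Lig1 (-0.29 ± 0.11) and Rpa2 (0.27 ± 0.11) came nearest. The difference between these lists was not tested.

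**Figure D5:**
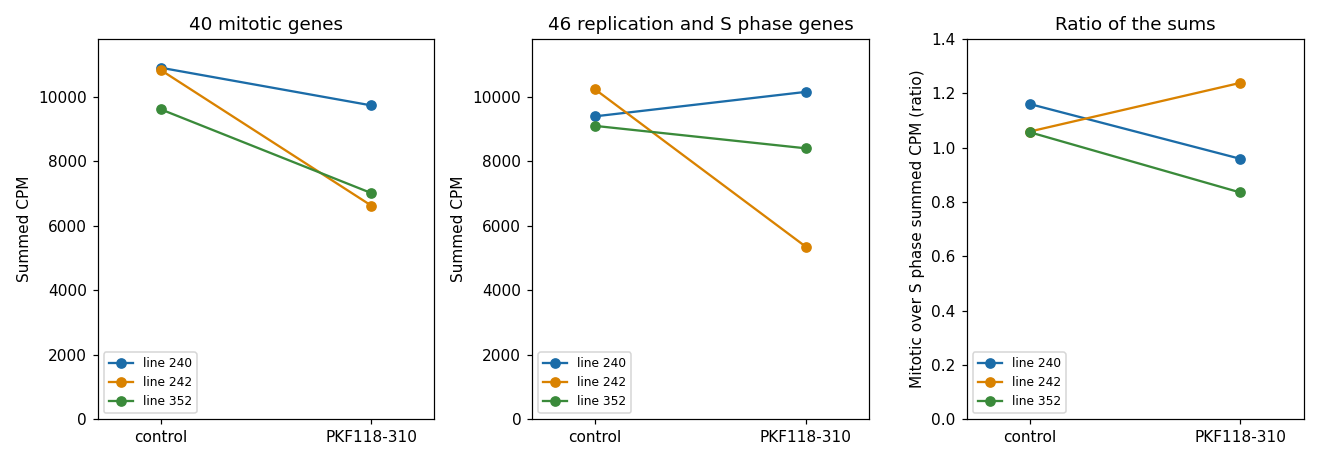
Summed CPM of the 40 mitotic genes (left) and of 46 replication and S phase genes (centre), and their ratio (right), in the control and PKF118-310 library of each line; every y axis starts at 0 and each line joins the 2 libraries of 1 cell line. The mitotic sum is lower after treatment in each line, while the ratio falls in lines 240 and 352 and rises to 1.24 in line 242.

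Other genes of the same machinery were taken from lists of pathway members. Among 28 further spindle and centrosome genes, 10 fell and 1 rose in lines 240 and 352 (median -0.30), or 35.7% and 3.57%, against 5.92% and 5.01% of all genes in that fit. In the fit of 3 lines 0 of them passed, and the same holds for the other pathway lists given here. Dlgap5 (-0.60 ± 0.12, adjusted p = 0.00667) and Ckap2l (-0.51 ± 0.10, adjusted p = 0.00918), both spindle proteins, fell. Gtse1, a G2 and S phase protein that binds microtubules and p53, rose (0.63 ± 0.11, adjusted p = 0.00371), from 59.5, 61.0 and 110 CPM in controls to 89.3, 143 and 175 CPM after treatment.

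Among 30 further kinetochore and centromere genes, 5 fell and 1 rose in lines 240 and 352 (median -0.18), or 16.7% and 3.33%, against 5.92% and 5.01% of all genes. Knstrn (-0.53 ± 0.11, adjusted p = 0.0107) and Hjurp, the Cenpa chaperone (-0.52 ± 0.12, adjusted p = 0.0142), fell. Zwint, an outer kinetochore protein, rose (0.52 ± 0.11, adjusted p = 0.0115), and was higher in each of the 3 lines. Among 19 APC/C subunits and regulators 1 fell (5.26%), a share at that of all genes (5.92%), with a median of -0.08. It was Fbxo5, an inhibitor of the APC/C (-0.45 ± 0.12, adjusted p = 0.0331), whose call was lost under 6 settings, and Anapc5 (-0.30 ± 0.12) and Anapc4 (0.28 ± 0.12) did not pass.

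Among 17 genes that control Cdk1 entry and exit, 3 rose and 2 fell in lines 240 and 352, or 17.6% and 11.8%, against 5.01% and 5.92% of all genes. Cdkn1a, the cyclin-dependent kinase inhibitor p21 and a p53 target, rose by 1.16 ± 0.14 on the log2 scale (adjusted p = 0.00063), from 54.1, 43.1 and 284 CPM in controls to 157, 908 and 529 CPM after treatment. Gadd45a, which inhibits Cdk1, rose by 0.81 ± 0.14 (adjusted p = 0.00451). Nearly all of its counts came from line 352, with 331 CPM in the control and 616 CPM after treatment (4484 and 8820 counts), against 8.68 and 11.5 CPM in line 240 (35 and 36 counts), so the call rests on line 352. In line 242 it was at 9.43 and 52.0 CPM. Cdc25a, a phosphatase that activates cyclin-dependent kinases, was the third to rise (0.40 ± 0.11, adjusted p = 0.0396), and in line 242 its log2 ratio was -0.71. Cdkn1b, the inhibitor p27, fell by 0.71 ± 0.11 (adjusted p = 0.00223), and in line 242 its within-line log2 ratio was 0.26. The other gene that fell was Ccnf, cyclin F (-0.36, adjusted p = 0.0438). Cdc25a and Ccnf were named after their values were seen.

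The lines themselves were also compared. Between the 3 lines, 0 of the 40 genes differed by the edgeR quasi-likelihood F test, against 5.32% of all 10331 genes, with a smallest adjusted p of 0.0869 (Spc24) and 5 genes at an unadjusted p below 0.05. DESeq2's likelihood ratio test gave 2, Bub1b and Nusap1, against 16.1% of all 10331 genes, a share below the background. Without line 242 the count was 19 of 40, against 44.7% of all 11760 genes, a share near the background. Control levels of Nusap1 were highest in line 240 (325 CPM) and lowest in line 352 (201 CPM), and those of Bub1b were lowest in line 242 (279 CPM).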

How the data were processed

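Poly(A) RNA of 6 libraries was made into stranded libraries and sequenced in 2 lanes each. The authors deposited gene counts without normalization. HISAT2, HTSeq, edgeR and the mm10 build are named in the submitters' processing notes, TopHat in the methods of the study, while versions, annotation and the strand setting were not given in the sources used here. Dose and time come from the text of the study. Groups and lines came from sample titles. Members and lists were chosen with earlier results of these data known.

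Lanes were summed after a chi-square comparison (0.98 to 1.02 per degree of freedom in lines 240 and 242, 2.01 and 2.05 in line 352, above sampling noise). Genes passing filterByExpr (10331 with 3 lines, 11760 with lines 240 and 352) were scaled by TMM and fitted by the quasi-likelihood method of edgeR 4.0.16 in R 4.3.3, blocking on line. Benjamini-Hochberg adjustment ran over all genes tested, with a threshold of 0.05. All 40 members passed both filters. Control and treated library of 1 line come from the same mouse tumour line, and their deviations from group means correlated at 0.67, 0.30 and 0.79. SEs were derived from the fold change and F statistic, so they carry the spread pooled over all genes and do not measure agreement between lines alone. The fit of 3 lines has 2 residual degrees of freedom and that of lines 240 and 352 has 1. Within-line ratios used a prior count of 2, and 95% intervals cover counting error only. Depth ran from 604984 to 13766638 counts. Levels per kb used GENCODE vM21 exons, with the file's coordinates for 37 members. Positions count from 1. Scripts were tested on simulated data. There the fit of 3 lines recovered 16% of 2-fold and 77% of 4-fold changes, with 5 false calls. The fit of lines 240 and 352 recovered 76% and 93%, with 13 false calls.

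Full values were given for members past the threshold in lines 240 and 352, the 6 smallest p of the 3-line fit, Cenpe (singled out by the study), Mki67, Ccnb1, Cdk1, Foxm1, and members with counting intervals on opposite sides of 0 in different lines. Values of Plk1, Bub3 and Top2a in every library were added after they were seen. From each other list, up to 3 genes with the smallest p were named. Alternatives were no block, each line left out, DESeq2 size factors, library totals, no or a stricter filter, DESeq2 1.42.0, the likelihood ratio test, limma 3.58.1 voom weights, halved counts of line 352 and each lane alone. Casc5, Sgol1 and Sgol2a are listed under newer symbols in the files.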

Additional observations from a re-analysis of the deposited data

Results flagged for a closer look

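In 3 of the 40 genes the change after PKF118-310 went opposite ways in lines 240 and 242, with counting intervals on opposite sides of 0. The within-line log2 ratio of line 240 minus that of line 242 was 0.65 for Bub1b (0.18 against -0.48), 0.87 for Cdc20 (0.22 against -0.65) and 0.78 for Kif20a (0.21 against -0.57). With 1 library per line and group, these differences were not tested over replicates, and the part that the depth of treated line 242 or its high mitochondrial share has in them was not tested. In line 352 Bub1b (-0.21, counting interval -0.26 to -0.15) and Cdc20 (-0.18, -0.26 to -0.10) were lower after treatment, while Kif20a (0.11) was higher. Bub1b and Cdc20 thus also went opposite ways in lines 240 and 352, with intervals above 0 in line 240 (0.08 to 0.27 and 0.04 to 0.39).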

How the results depend on the processing

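The count of 0 members past the threshold in all 3 lines became 1 with the edgeR likelihood ratio test and 6 with limma voom weights, ranged from 0 to 12 when 1 line was left out (12 without line 242, 0 without line 240 or 352), and was 0 under the other settings. Of all genes, 0.281% were called lower with that likelihood ratio test, 4.59% with voom weights and 5.92% without line 242. The 12 calls in lines 240 and 352 became 0 with no replicate block, 6 with line 352 halved, 7 with library totals, 6 with at least 10 counts in every library, 5 with DESeq2 and 6 with lane 2 alone, and were 12 to 17 under the other settings. The share of all genes called lower, 5.92% in the main fit, moved too. It was, in the same order, 0%, 3.18%, 4.23%, 4.24%, 1.34% and 3.73%, and 3.85% to 8.32% under the other settings. Ccnb2, Cenpf, Mki67 and Nusap1 were among the calls under each setting except no replicate block. Aurkb, Cdc25b, Cenpa, Kif2c and Spc24 were lost under the settings with 5 to 7 calls, Foxm1 under those except library totals, Anln and Spc25 under DESeq2, and Aurkb and Spc24 in lane 1. The paired fit changed no other call among the members, since without the block 0 passed in all 3 lines as well. Members that differ between lines numbered 2 with DESeq2 (16.1% of all genes) and 0 to 19 with 1 line left out (2.05% to 44.7% of all genes). The median change stayed below 0 under every setting, from -0.56 to -0.29 with 1 line left out. Of the named genes, none past the threshold turned direction. Turns were Bub1b in lines 240 and 352 (0.0059 with no replicate block, 0.0079 in lane 1), Cdc20 there (0.0014 with no replicate block, 0.0068 with library totals, 0.029 in lane 2), and, in all 3 lines, Kif20a (-0.25 to 0.16 with 1 line left out, above 0 without line 242), Rfc4 (-0.33 to 0.38 with 1 line left out, -0.20 without 352, -0.019 with no filter, -0.024 with DESeq2, -0.011 in lane 2), Rpa2 (-0.41 to 0.27 with 1 line left out, above 0 without line 242, 0.096 in lane 2), Nfyb (-0.11 to 0.20 with 1 line left out, below 0 without line 242, -0.016 with no filter, -0.041 in lane 2) and Nfyc (-0.68 to 0.25 with 1 line left out, above 0 without line 242). With no filter the median of all genes shifted to 0.51 in 3 lines and 0.17 in lines 240 and 352. The cause of these shifts was not tested. Depth limits line 242 most, where the median counting interval of a member spanned 0.74 log2 units.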

Other observations

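Factors that regulate mitotic transcription were measured in the same libraries. Of 19 DREAM, MuvB and E2F factors, 2 fell in lines 240 and 352 and 0 rose, against 5.92% and 5.01% of all genes (edgeR quasi-likelihood test). Tfdp2, a dimer partner of E2F proteins, fell by 0.63 ± 0.13 on the log2 scale (SE, n = 2 lines; edgeR adjusted p = 0.0096), from 104 to 57.1 CPM in line 240 and from 70.5 to 51.6 CPM in line 352, with 102 and 98.4 CPM in line 242. E2f7, a repressor of the E2F family, fell by 0.57 ± 0.14 (edgeR adjusted p = 0.0195), and Rbl2, the DREAM pocket protein p130, had -0.37 ± 0.12 (edgeR adjusted p = 0.0619). None of the 3 NF-Y subunits passed, with Nfya at -0.22 ± 0.10, Nfyb at -0.11 ± 0.11 and Nfyc at 0.25 ± 0.13 in lines 240 and 352, and the sign of Nfyb and Nfyc in all 3 lines depended on line 242.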
